A study of Mus musculus with 8 samples.

Results

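The 10 genes followed here encode brakes on the kinases ERK, JNK and p38, most of them on the path from Ras to ERK: the Sprouty genes Spry1 and Spry2, the Sprouty-related genes Spred1 and Spred2, and the dual-specificity phosphatase genes Dusp1, Dusp2, Dusp4, Dusp5, Dusp6 and Dusp10. They were chosen by gene symbol. Every probe set annotated to 1 of these 10 symbols was taken and read separately, which gave 23 of the 45037 probe sets that are not controls. Of the 23, 21 passed the filter on low signal and were tested. The other two, 1 of 8 for Spred1 and 1 of 5 for Spred2, are given as values only.

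The T cells came from spleens of C57BL/6 mice, were enriched for CD8 with magnetic beads, and spent 18 h beside bone-marrow-derived dendritic cells in a 10 to 1 excess of T cells. Cells of the p50 cRel DKO genotype, which by that label lack both of these NF-kB subunits, and cells of the PKC theta KO genotype met dendritic cells loaded with N4, the ovalbumin peptide SIINFEKL. Wild-type (WT) cells met the same loaded dendritic cells (WT N4) or unloaded ones (WT UN). Each of these 4 groups had 2 arrays, and dendritic cells had been removed through CD11c before RNA was extracted. Neither knockout was cultured without peptide, so a genotype effect on resting levels cannot be told apart from one on the response. The labels give no antigen receptor for the T cells, do not say whether the knockouts are germline, and leave unsaid whether arrays of 1 group stem from separate animals or cultures. The p-values below therefore reflect the spread between these arrays alone, which may be technical.

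When a T cell receptor binds its ligand, diacylglycerol recruits RasGRP1, the exchange factor that loads Ras with GTP, and Ras starts the cascade of RAF, MEK and ERK. Diacylglycerol also activates PKC theta, a kinase on the path to NF-kB. ERK activity in turn switches on genes whose products brake the cascade. Sprouty and Spred proteins act upstream, at Ras and RAF, and dual-specificity phosphatases remove the activating phosphates from ERK, JNK and p38 directly. In T cells such brakes are known to limit how long ERK stays active after receptor engagement.

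RefSeq promoter windows (build GRCm38.p6) were matched for 9 of the 10 genes, with Dusp4 unmatched. Each window holds the 250 bases before the annotated start, written 5′ to 3′ on the strand of the gene. Shown are those of Spry1 and Dusp5, the members with the largest rises in WT cells, of Dusp1, the member with the largest fall, and of Spry2, whose probe set passed the test between the p50 cRel DKO and WT N4 cells. Capitals mark a perfect cAMP response element (TGACGTCA) in Dusp1, a pair of CArG boxes in Dusp5 and the NFAT core GGAAAA in Spry2. No searched motif was found in the Spry1 window.
Spry1 promoter (chr3:37639697-37639946, plus strand): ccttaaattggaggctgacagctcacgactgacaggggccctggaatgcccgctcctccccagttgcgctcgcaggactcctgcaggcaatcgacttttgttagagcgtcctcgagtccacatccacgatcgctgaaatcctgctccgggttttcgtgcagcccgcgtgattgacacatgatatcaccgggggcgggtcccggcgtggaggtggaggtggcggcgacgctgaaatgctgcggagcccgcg
Spry2 promoter (chr14:105896820-105897069, minus strand): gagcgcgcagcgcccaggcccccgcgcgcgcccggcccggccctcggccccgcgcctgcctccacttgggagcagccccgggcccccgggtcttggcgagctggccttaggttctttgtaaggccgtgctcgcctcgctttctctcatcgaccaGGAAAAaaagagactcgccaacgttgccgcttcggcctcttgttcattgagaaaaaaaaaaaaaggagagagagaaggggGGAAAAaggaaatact
Dusp5 promoter (chr19:53528895-53529144, plus strand): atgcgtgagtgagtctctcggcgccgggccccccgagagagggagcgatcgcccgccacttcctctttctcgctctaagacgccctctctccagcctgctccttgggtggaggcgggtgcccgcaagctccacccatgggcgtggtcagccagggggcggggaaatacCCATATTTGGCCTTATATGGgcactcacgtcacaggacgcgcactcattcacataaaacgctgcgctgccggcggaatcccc
Dusp1 promoter (chr17:26508473-26508722, minus strand): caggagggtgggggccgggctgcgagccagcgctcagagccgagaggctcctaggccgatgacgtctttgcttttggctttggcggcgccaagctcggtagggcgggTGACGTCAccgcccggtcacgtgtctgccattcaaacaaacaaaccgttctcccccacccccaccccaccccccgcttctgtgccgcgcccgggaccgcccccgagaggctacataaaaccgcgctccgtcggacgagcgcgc
The pair of CArG boxes in Dusp5, the motif of serum response factor, stands end to end at 82 to 73 and 72 to 63 bases before the start, and CArG occurred in 1.47% of all 32851 promoter windows. The element in Dusp1 lies 143 to 136 bases before the start, and 1.55% of all windows held one. The shorter core TGACG, which overlaps that element, was found in Spred2, Dusp1 and Dusp5, and in 17.8% of all windows. Dusp1 also held this core apart from that element, at 191 to 187 bases before the start. GGAAAA was found in Spry2 (at 96 to 91 and at 16 to 11 bases before the start) and Spred2, and in 20.4% of all windows. The E-box CACGTG was found in Dusp1 and Dusp2, left in lower case above, and in 6.02% of all windows. None of the 9 windows held the kB motif, the AP-1 motif TGANTCA or the ETS motif CCGGAA, which 7.25%, 6.75% and 12% of all windows held. Both strands were searched. A match is a description of letters and not a binding site, and no match says only that these letters are not in this window.

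Signals are given as log2(signal + 16), and folds are on this scale too, which understates the change of dim probe sets. Each array had been scaled to the same 2% trimmed mean of 500, with median signals of 33.6 to 70.3. The labels could be checked in part: Rel, which encodes cRel, stood at 6.19 and 5.92 on the p50 cRel DKO arrays, against 9.82 and 9.53 on the WT N4 arrays (limma, adjusted p = 0.00337). The p50 part of that label was not checked. Prkcq, which encodes PKC theta, stood at 11.00 and 10.75 on the PKC theta KO arrays, against 11.74 and 11.35 on the WT N4 arrays and 11.90 and 11.51 on the WT UN arrays. It was lower in PKC theta KO cells than in WT N4 cells by the difference -0.66, without overlap (limma, unadjusted p = 0.0142, adjusted p = 1.00), and than in WT UN cells by -0.83 (adjusted p = 0.0205). The labels do not say where its probes lie relative to the deletion, so this does not settle that label. Xist, a transcript of the inactive X chromosome, was at 12.27 to 12.57 on the 4 knockout arrays, against 5.18 and 6.65 on the WT N4 arrays and 6.05 and 11.84 on the WT UN arrays. The Y-linked Eif2s3y was at 5.42 to 6.73 on the knockout arrays, against 10.65 to 11.20 on the WT arrays. Genotype and these sex-linked transcripts therefore differ together and cannot be told apart, and WT UN replicate 2 stands apart from replicate 1 in Xist.

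Markers of other cells also separated the N4 arrays from the WT UN arrays. Over 6 B cell markers the mean level was 6.43 to 8.53 on the 6 N4 arrays, against 11.45 and 12.11 on the WT UN arrays. Over 7 dendritic cell and macrophage markers it was 7.67 to 8.65, against 11.84 and 12.31 on the WT UN arrays. For 5 neutrophil markers it was 5.63 to 6.49, against 10.60 and 11.58 on the WT UN arrays. All 6 B cell markers, all 7 dendritic cell and macrophage markers, and the 4 fitted neutrophil markers were lower in WT N4 than in WT UN cells by limma, adjusted p under 0.05. No marker of these lists had a signal of 0 on any array. CD8 T cell markers differed far less, at 12.31 to 12.74 on the N4 arrays against 12.05 and 12.14 on the WT UN arrays. Of their 6 genes, 2 were called higher and 0 lower in WT N4 than in WT UN cells. Against WT UN, 3 were called higher in PKC theta KO cells and 1 in p50 cRel DKO cells. Of all 12520 genes fitted, taken at their brightest probe set, 36.6%, 37.3% and 35.6% were called in these comparisons. Nothing particular to the CD8 T cell markers is read from these counts. In bulk samples fewer cells of a type and less RNA per cell cannot be told apart. The part of these cells in the differences from WT UN given here was not tested.

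**Figure D1:**
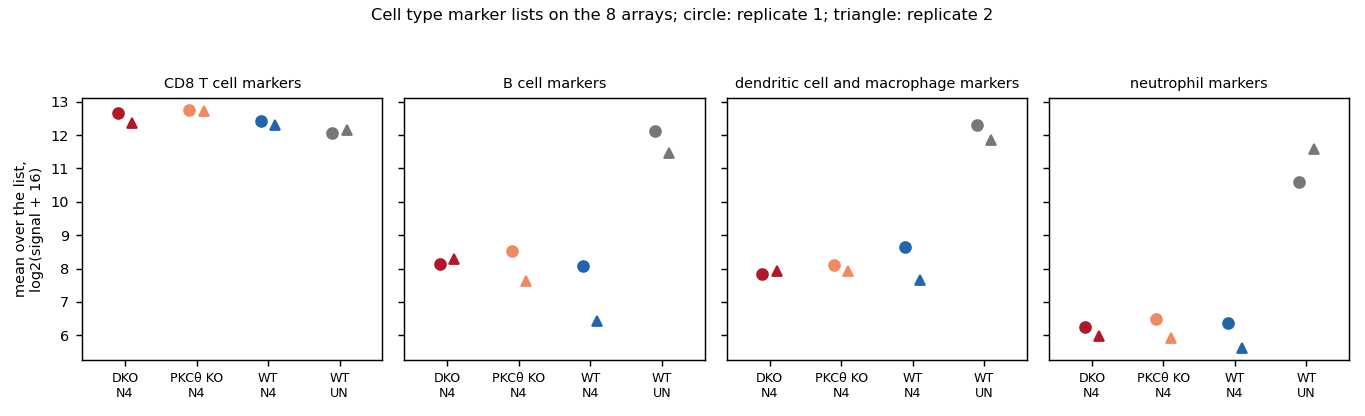
Mean level over 4 lists of cell type markers, as log2(signal + 16), on each of the 8 arrays in the p50 cRel DKO (DKO), PKC theta KO, WT N4 and WT UN groups; circles are replicate 1 and triangles replicate 2. The WT UN arrays stand far above all 6 N4 arrays for B cell, dendritic cell and macrophage, and neutrophil markers, while CD8 T cell markers lie between 12.05 and 12.74 throughout.

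Comparing WT N4 with WT UN cells asks which brakes changed when the dendritic cells carried the peptide. Spry1 and Dusp5 rose 16.4-fold and 5.15-fold, 1 probe set of Spred2 rose 1.80-fold, and Dusp1, Dusp10 and Dusp6 fell. In all, 6 of the 21 fitted probe sets passed the test (limma, adjusted p under 0.05 over all 27022 probe sets fitted), 3 higher and 3 lower, and the other 15 did not. That is 28.6%, beside 29.4% of all fitted probe sets, of which 12.1% were higher and 17.3% lower. By probe set the members were thus called about as often as probe sets in general, and moved in both directions. Counted 1 probe set a gene, by the brightest, 6 of the 10 members were called, 3 higher and 3 lower. That is 60%, beside 36.6% of all 12520 genes fitted. The members were chosen with earlier results of these data known, and this difference in share was not tested. The median difference of the 21 member probe sets was -0.08, beside -0.13 over all fitted probe sets. Under quantile normalization and median centring the median of all probe sets moved to 0.13 and 0.28, and the split of members called became 6 higher and 2 lower, and 5 higher and 2 lower. Of all probe sets called, 41.1% were higher in WT N4 cells, against 56.1% and 62.0% under these scalings.

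Spry1 (1415874_at), a Sprouty that binds Grb2 and RAF and blocks the path to ERK, stood at 12.15 and 12.07 on the p50 cRel DKO arrays, 11.94 and 12.00 on the PKC theta KO arrays, 11.61 and 11.85 on the WT N4 arrays, and 7.65 and 7.73 on the WT UN arrays. Every N4 array, of whatever genotype, lay far above both WT UN arrays, and the N4 genotypes lay close together without overlapping. The rise in WT N4 over WT UN cells was 4.04 (SE 0.14, 95% confidence interval 3.71 to 4.37, limma adjusted p = 3.4e-05), and the replicate numbers gave 3.96 and 4.12. In linear signal, the PKC theta KO arrays read 3908 and 4066 and the WT N4 arrays 3109 and 3667, against 185 and 196 on the WT UN arrays. Spry1 was 0.38 higher in p50 cRel DKO than in WT N4 cells (95% interval 0.05 to 0.71), which did not pass (adjusted p = 0.844). For PKC theta KO cells the difference from WT N4 was 0.24 (95% interval -0.09 to 0.57, adjusted p = 1.00). The genes whose levels followed Spry1 most closely over the 8 arrays, out of 12519 genes searched, were Gmnn (Pearson r = 0.9973), Gpr89 (0.9971), Hat1 (0.9965), Ppat (0.9960) and Xpot (0.9956). These 8 points fall into N4 and UN arrays, so the likeness mainly describes that split, and no test was made of it.

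Spry2 had 2 probe sets. The brighter, 1436584_at, stood at 8.71 and 9.20 on the p50 cRel DKO arrays, 8.09 and 7.86 on the PKC theta KO arrays, 6.60 and 7.12 on the WT N4 arrays, and 7.11 and 7.58 on the WT UN arrays. The 3 N4 genotypes did not overlap: p50 cRel DKO was highest, PKC theta KO between, and WT N4 lowest, overlapping WT UN. The difference between WT N4 and WT UN cells, -0.48, did not pass (95% interval -1.17 to 0.20, adjusted p = 0.274). The dim probe set 1421656_at stood at 5.09 and 6.16 on the p50 cRel DKO arrays, 5.78 and 6.70 on the PKC theta KO arrays, 5.47 and 6.36 on the WT N4 arrays, and 5.89 and 6.13 on the WT UN arrays. All 4 groups overlapped there, and the levels of the 2 probe sets had a Pearson r of -0.06 over the 8 arrays. Spry2 values given further on rest on the brighter probe set.

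**Figure D2:**
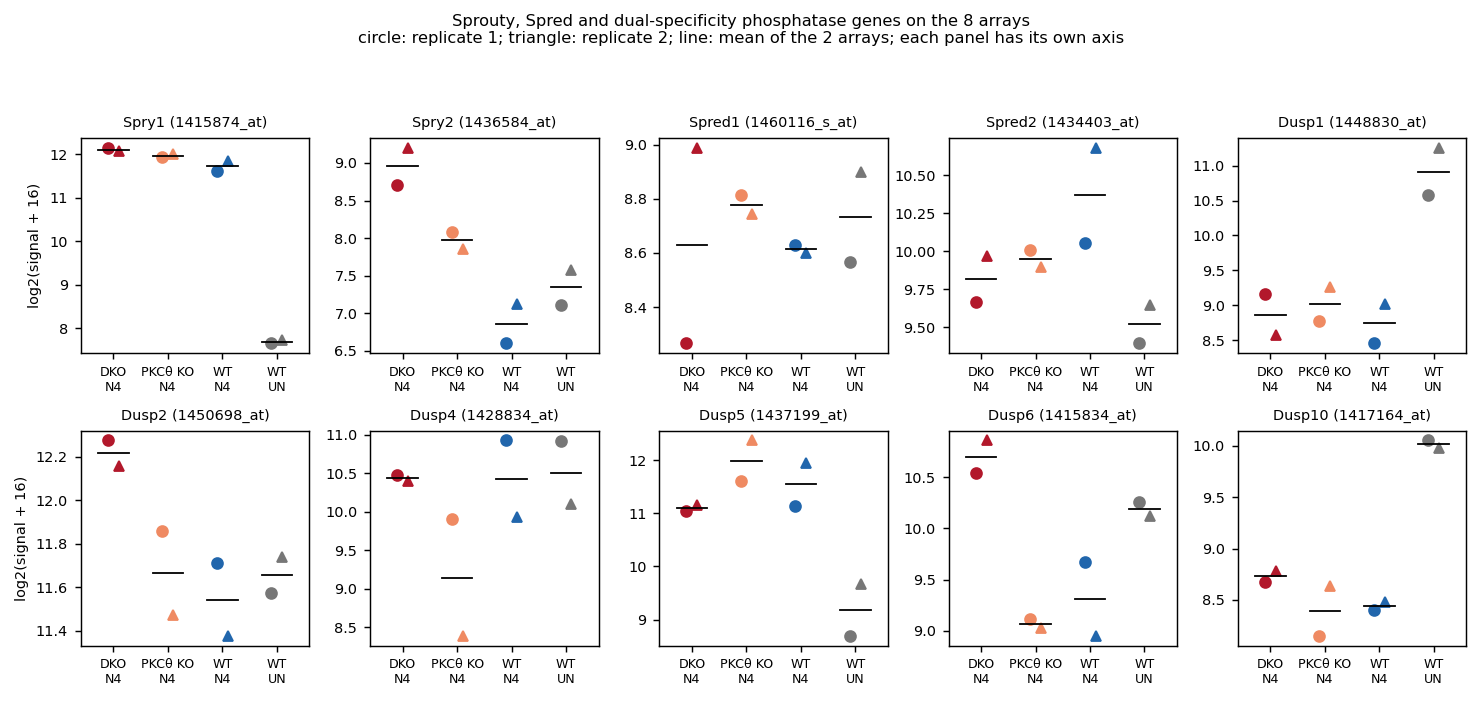
Levels of the members, as log2(signal + 16), on each of the 8 arrays by group, with the 1 probe set of highest mean drawn for each gene and group means as lines. Spry1 and Dusp5 are high in every N4 group, Dusp1 and Dusp10 are higher in WT UN cells than on any N4 array, and Spry2 and Dusp6 are highest in p50 cRel DKO cells.

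Spred1 and Spred2 encode Spred proteins, which bring the Ras inactivator neurofibromin to the membrane. None of the 7 fitted probe sets of Spred1 passed the test between WT N4 and WT UN cells by limma (0 also at an unadjusted p under 0.05), with differences from -0.82 to 0.39, 4 positive and 3 negative. The brightest, 1460116_s_at, stood at 8.27 and 8.99 on the p50 cRel DKO arrays, 8.81 and 8.74 on the PKC theta KO arrays, 8.63 and 8.60 on the WT N4 arrays, and 8.57 and 8.90 on the WT UN arrays. Those of the p50 cRel DKO and WT UN cells spanned the arrays of the WT N4 cells, and no group stood apart. The unfitted Spred1 probe set 1445228_at lay between 4.10 and 4.65 on all arrays.

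For Spred2 the 4 fitted probe sets all leaned higher in WT N4 than in WT UN cells, by 0.22 to 1.08. The brightest, 1434403_at, stood at 9.66 and 9.97 on the p50 cRel DKO arrays, 10.01 and 9.89 on the PKC theta KO arrays, 10.06 and 10.68 on the WT N4 arrays, and 9.39 and 9.64 on the WT UN arrays. Both WT N4 arrays lay above all others, and both WT UN arrays below. It rose by 0.85 in WT N4 cells (SE 0.23, limma adjusted p = 0.0265), and by 0.66 and 1.04 within the replicate numbers. The call was lost in 5 of 14 alternatives (adjusted p up to 0.138), among them each fit without WT UN replicate 1, WT UN replicate 2 or WT N4 replicate 2, and the difference was 0.54 to 1.16 with 1 array left out. With the replicate number as a block, under which 43.7% of all fitted probe sets passed, 1436892_at passed as well (1.08, adjusted p = 0.00535), as did 1441802_at (0.98, adjusted p = 0.0495). The unfitted 1423001_at lay between 4.21 and 5.42 on all arrays.

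**Figure D3:**
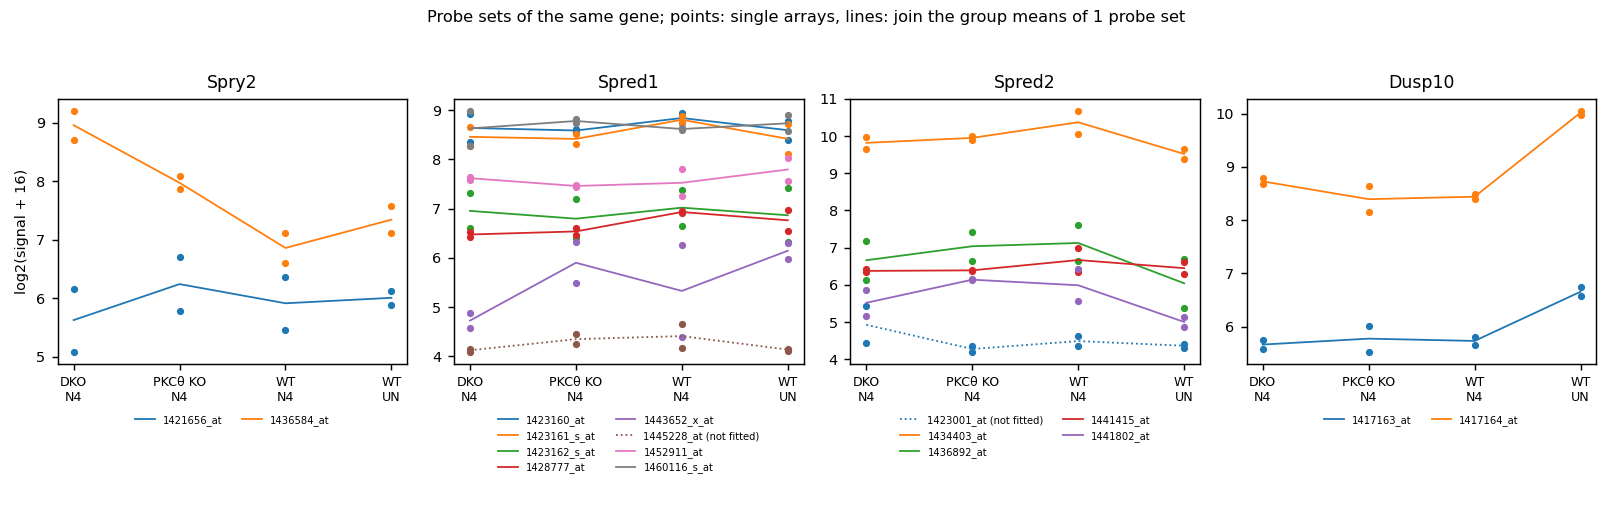
Levels of every probe set of the 4 genes with more than 1, as log2(signal + 16): points are single arrays and lines join the group means of 1 probe set, with unfitted probe sets dotted. The 2 probe sets of Dusp10 fall together in the N4 groups, whereas those of Spry2 part in the p50 cRel DKO cells.

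Among the phosphatases of the nucleus, Dusp5 and Dusp1 moved in opposite directions. Dusp5, a phosphatase specific for ERK, stood at 11.05 and 11.15 on the p50 cRel DKO arrays, 11.61 and 12.37 on the PKC theta KO arrays, 11.14 and 11.95 on the WT N4 arrays, and 8.69 and 9.66 on the WT UN arrays. All 6 N4 arrays were above both WT UN arrays. The rise in WT N4 cells was 2.36 (SE 0.39, 95% interval 1.48 to 3.25, limma adjusted p = 0.00273), with 2.44 and 2.29 within the replicate numbers. Genes closest to Dusp5 over the 8 arrays, out of 12519 searched, were Trmt1 (Pearson r = 0.9923), Dipk1b (0.9906), Mrps24 (0.9893), Hccs (0.9887) and Sf3b6 (0.9866). These points again fall into N4 and UN arrays, and no test was made of the likeness. A high r does not mean a change of like size. Trmt1 averaged 11.485 on the WT N4 and 10.987 on the WT UN arrays, and Dipk1b 8.815 and 6.469.

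Dusp1, which acts on p38 and JNK as well as ERK and is a classic immediate early gene, stood at 9.16 and 8.57 on the p50 cRel DKO arrays, 8.77 and 9.26 on the PKC theta KO arrays, 8.46 and 9.02 on the WT N4 arrays, and 10.58 and 11.26 on the WT UN arrays. Both WT UN arrays stood above all N4 arrays, and the N4 groups overlapped. Dusp1 fell by 2.18 in WT N4 cells (SE 0.33, limma adjusted p = 0.00187), with -2.12 and -2.23 within the replicate numbers.

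Dusp2 and Dusp4 did not pass in this comparison. Dusp2, a nuclear phosphatase of activated lymphocytes, stood at 12.28 and 12.16 on the p50 cRel DKO arrays, 11.86 and 11.47 on the PKC theta KO arrays, 11.71 and 11.38 on the WT N4 arrays, and 11.57 and 11.74 on the WT UN arrays. It was bright everywhere, and its WT N4 and WT UN arrays overlapped (difference -0.11, 95% interval -0.52 to 0.30). Dusp4, a relative of Dusp1 that acts on ERK and JNK, stood at 10.47 and 10.40 on the p50 cRel DKO arrays, 9.90 and 8.39 on the PKC theta KO arrays, 10.93 and 9.93 on the WT N4 arrays, and 10.91 and 10.10 on the WT UN arrays. Its spread was wide outside the p50 cRel DKO group, and replicate 1 read above replicate 2 in every group. In the main fit, which leaves the replicate number out, the interval of its difference between WT N4 and WT UN cells was -1.25 to 1.09. That interval alone leaves a change of more than 2-fold in either direction possible. Within the replicate numbers the differences were 0.01 and -0.18. With the number as a block the difference was -0.08 (SE 0.275, against 0.510 in the main fit).

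Dusp6, the phosphatase that meets ERK in the cytoplasm and a standard readout of ERK activity in many cells, stood at 10.54 and 10.86 on the p50 cRel DKO arrays, 9.11 and 9.02 on the PKC theta KO arrays, 9.67 and 8.95 on the WT N4 arrays, and 10.26 and 10.13 on the WT UN arrays. It was low in WT N4 and PKC theta KO cells, which overlapped, higher in WT UN cells, and highest in p50 cRel DKO cells. Dusp6 fell by 0.88 in WT N4 relative to WT UN cells (SE 0.25, limma adjusted p = 0.0287), with -0.59 and -1.18 within the replicate numbers. This call was lost in 7 of the 14 alternatives, among them median centring, where the difference was -0.48 (adjusted p = 0.381), and each fit without WT UN replicate 1, WT UN replicate 2 or WT N4 replicate 2.

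Dusp10, which acts on JNK and p38 rather than ERK, had 2 probe sets. At 1417164_at it stood at 8.67 and 8.78 on the p50 cRel DKO arrays, 8.15 and 8.64 on the PKC theta KO arrays, 8.40 and 8.48 on the WT N4 arrays, and 10.05 and 9.98 on the WT UN arrays. Both WT UN arrays were above all N4 arrays. The fall in WT N4 cells was -1.58 (SE 0.21, limma adjusted p = 0.00109). At the dimmer 1417163_at the difference was -0.92, which did not pass (adjusted p = 0.0588) but did with the replicate block (adjusted p = 0.0272). Over the 8 arrays the 2 probe sets had a Pearson r of 0.94, and 1417164_at had r = 0.92 with Dusp1 and r = -0.95 with Spry1, again over points that fall into N4 and UN arrays.

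The PKC theta KO cells were compared with WT N4 cells to ask whether the brakes differed without this kinase. No member probe set passed (0 of 21 by limma, 2 at an unadjusted p under 0.05), and 0.0148% of all fitted probe sets passed after adjustment. Spry2 was 1.11 higher in PKC theta KO than in WT N4 cells (SE 0.30, 95% interval 0.43 to 1.80, unadjusted p = 0.00562, adjusted p = 1.00), with 1.49 and 0.74 within the replicate numbers. Dusp4 was lower by the difference -1.28 (95% interval -2.45 to -0.11, unadjusted p = 0.0353). Without PKC theta KO replicate 2 this difference was -0.53, and without PKC theta KO replicate 1 it was -2.04, each a change of over 1.5 times. Its 2 PKC theta KO arrays, at 9.90 and 8.39, were both below the WT N4 arrays, at 10.93 and 9.93, the first only just below the lower of these. For Dusp6 the difference was -0.24 (95% interval -0.81 to 0.32). Differences were 0.45 for Dusp5, 0.28 for Dusp1, 0.12 for Dusp2 and -0.05 for Dusp10 (1417164_at). With 2 arrays a group these intervals do not exclude changes of moderate size, and they do not show that the genes were alike. CD8 T cell markers averaged 12.74 and 12.73 on the PKC theta KO arrays, against 12.41 and 12.31 on the WT N4 arrays, without overlap. None of their 6 genes passed by limma. Means of the B cell, dendritic cell and macrophage, and neutrophil markers overlapped between these groups. The part of the markers in these differences was not tested.

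Comparing the p50 cRel DKO with WT N4 cells asks the same of the 2 NF-kB subunits. Spry2 rose in the p50 cRel DKO cells, 4.28-fold at 1436584_at, and it was the only 1 of 21 member probe sets that passed, beside 0.226% of all fitted probe sets (0.104% in the higher direction). The difference was 2.10 (SE 0.30, 95% interval 1.41 to 2.78, limma adjusted p = 0.0465), and the replicate numbers gave 2.11 and 2.08. Over the 14 alternatives the adjusted p ran from 0.00547 to 0.457, and leaving out any 1 of the 4 arrays compared ended the call while the difference stayed between 1.84 and 2.36. The second Spry2 probe set had a difference of -0.29 (95% interval -1.45 to 0.87). Mean levels of the B cell markers were 8.13 and 8.27 on the p50 cRel DKO arrays, against 6.43 and 8.09 on the WT N4 arrays, and those of the dendritic cell and macrophage markers 7.85 and 7.92, against 7.67 and 8.65 on the WT N4 arrays. Neutrophil markers averaged 5.98 and 6.25 on the p50 cRel DKO arrays, against 5.63 and 6.38 on the WT N4 arrays. CD8 T cell markers averaged 12.67 and 12.36 on the p50 cRel DKO arrays, against 12.41 and 12.31 on the WT N4 arrays. Among their 6 genes Cd2 fell by 0.98 in the p50 cRel DKO cells (limma adjusted p = 0.0429, and 0.00563 with the block). At an unadjusted p under 0.05, 3 of the 6 were higher and 1, Cd2, was lower, and their median difference was 0.29. For 5 of them the arrays did not overlap. The shares of all fitted probe sets at these limits were not counted, so nothing particular to the markers is read from them. Of the 4 list means, that of the B cell markers did not overlap between these groups, by a small margin. The part of these markers in the differences was not tested.

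Dusp6 was 2.62-fold higher in p50 cRel DKO than in WT N4 cells without passing the test: the difference was 1.39 (SE 0.25, 95% interval 0.82 to 1.96, limma adjusted p = 0.110). With the replicate number as a block it passed (adjusted p = 0.0238), so that 2 members passed in place of 1, beside 1.08% of all fitted probe sets under the block in place of 0.226%. Both p50 cRel DKO arrays were above all 6 other arrays for Dusp6. Among the 5 member probe sets with an unadjusted p under 0.05 the others did not pass after adjustment: Dusp2 (0.67 higher, 95% interval 0.26 to 1.08, adjusted p = 0.397), Spry1 (above) and Spred2 at 1434403_at (difference -0.55, 95% interval -1.09 to -0.02, adjusted p = 1.00). Differences were -0.44 for Dusp5, 0.12 for Dusp1, 0.01 for Dusp4 and 0.29 for Dusp10 (1417164_at).

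**Figure D4:**
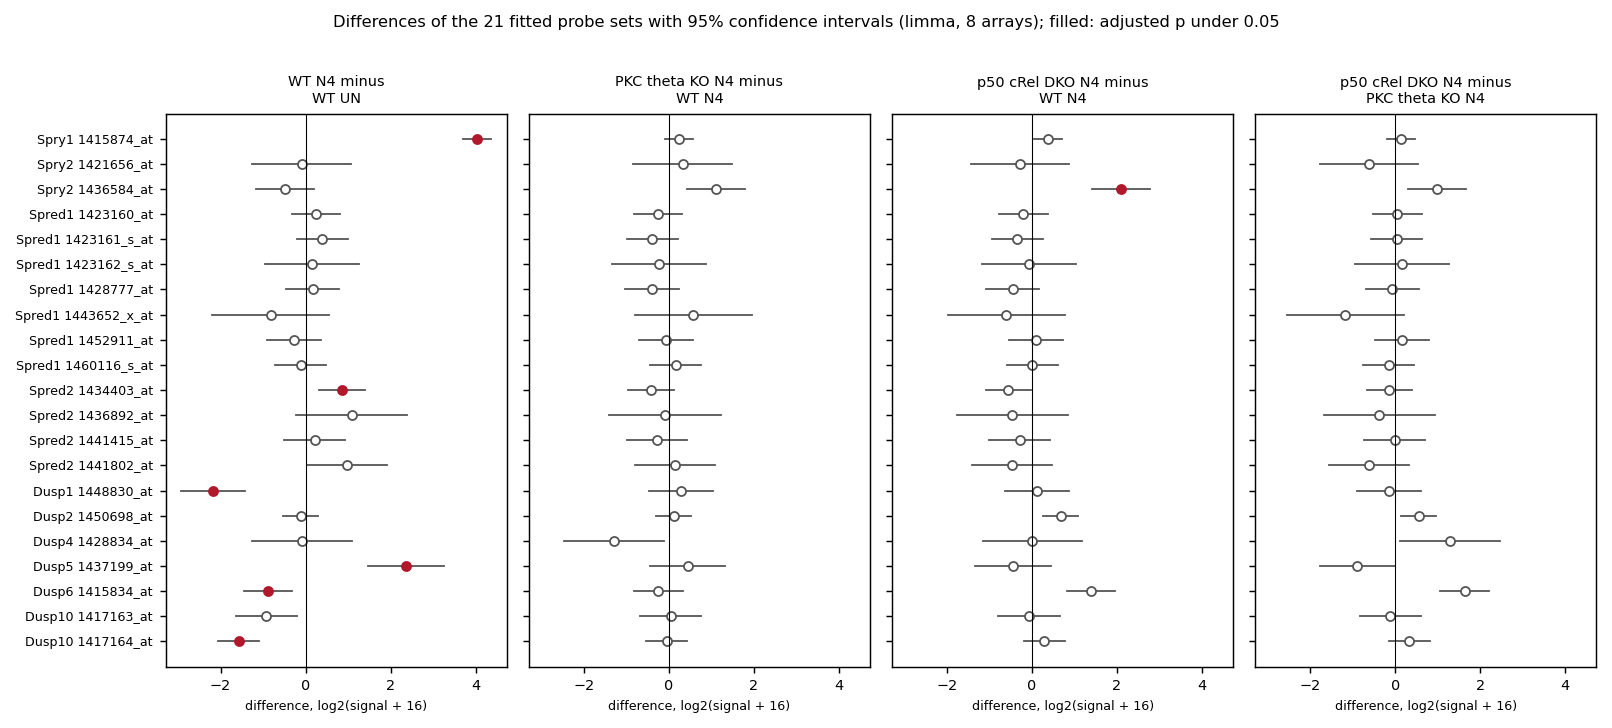
Differences of the 21 fitted probe sets, in log2(signal + 16), with 95% confidence intervals from limma in 4 comparisons; filled points have an adjusted p under 0.05. There are 6 points filled for WT N4 minus WT UN and 1, Spry2, for p50 cRel DKO minus WT N4, while the comparisons that set PKC theta KO against WT N4 and p50 cRel DKO against PKC theta KO have none.

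Set directly against each other, the p50 cRel DKO and PKC theta KO cells differed most in Dusp6. It was 3.10-fold higher in p50 cRel DKO cells, a difference of 1.63 (SE 0.25, 95% interval 1.07 to 2.20), and missed the threshold (limma adjusted p = 0.0772). The block by replicate number, under which 0.677% of all fitted probe sets passed, gave an adjusted p of 0.0150, and the call was also made with 1 probe set per gene and with only these groups in the fit. Without the block no member passed (0 of 21 by limma, 5 at an unadjusted p under 0.05). Of all fitted probe sets 0.13% passed after adjustment (0.0592% higher, 0.0703% lower). The remaining ones at that unadjusted p were Spry2 (0.98, 95% interval 0.30 to 1.67), Dusp2 (0.55), Dusp4 (1.29, 95% interval 0.12 to 2.46, but 0.54 without PKC theta KO replicate 2 and 2.05 without replicate 1) and Dusp5 (-0.89). Dusp6 and Dusp2 were thus measured higher in the p50 cRel DKO than in either other N4 genotype. Dusp4 did not pass (limma adjusted p = 0.893). Its PKC theta KO arrays read 9.90 and 8.39, the first close to WT N4 replicate 2 at 9.93. CD8 T cell markers averaged 12.67 and 12.36 on the p50 cRel DKO arrays, against 12.74 and 12.73 on the PKC theta KO arrays, without overlap. Of their 6 genes 1 passed by limma, as lower in p50 cRel DKO cells, beside 0.192% of all 12520 genes fitted. Means of the B cell, dendritic cell and macrophage, and neutrophil markers overlapped. The part of the markers was not tested.

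Both knockouts were also compared with WT UN cells, where genotype and peptide differ together and where the control arrays are those of the WT comparison. In p50 cRel DKO cells 7 probe sets of 6 genes passed, beside 28.5% of all fitted probe sets (11.6% higher, 16.9% lower). Spry1 (4.42), Spry2 (1.61, limma adjusted p = 0.00515), Dusp5 (1.92) and Dusp2 (0.56, adjusted p = 0.0489) rose, and Dusp1 (-2.05) and both probe sets of Dusp10 (-1.29 and -0.99) fell. Of these, Dusp2 passed in 5 of 14 alternatives (adjusted p up to 0.202) and Dusp10 at 1417163_at in 3 of the 12 in which it was fitted (adjusted p up to 0.232). Both calls were lost without any 1 of the 4 arrays, where the differences were 0.48 to 0.64 and -1.08 to -0.90. In PKC theta KO cells 5 passed, beside 30.1% of all fitted probe sets (11.9% higher, 18.2% lower). Spry1 (4.28) and Dusp5 (2.81) rose, and Dusp1 (-1.90), Dusp10 (-1.62 at 1417164_at) and Dusp6 (-1.13, limma adjusted p = 0.0104) fell. With the replicate block 9 member probe sets passed in PKC theta KO cells, and 44.1% of all fitted probe sets, so the members gained calls as probe sets in general did. The additional ones were Dusp4 (-1.36, adjusted p = 0.00364, and without the block -0.61 without PKC theta KO replicate 2 and -2.12 without replicate 1), Spred2 at 1436892_at (0.99, adjusted p = 0.00804) and 1441802_at (1.14, adjusted p = 0.0282), and Dusp10 at 1417163_at (-0.88, adjusted p = 0.0329). Dusp6 in p50 cRel DKO cells differed from WT UN by 0.51 (limma adjusted p = 0.170). Its fall was thus called in WT N4 and PKC theta KO cells and not in p50 cRel DKO cells. These 2 calls held in 7 of 14 alternatives for WT N4 and 11 of 14 for PKC theta KO cells, and median centring ended both. The difference in Dusp6 between p50 cRel DKO and WT N4 cells passed only with the block.

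Other genes of the pathway were counted 1 probe set a gene, by the brightest. Counted that way, 36.6% of all 12520 genes fitted were called in WT N4 against WT UN cells (15.4% higher, 21.2% lower), and 50.1% with the replicate block (21.9% higher, 28.2% lower). The lists below are described beside these shares, and nothing particular to a list is read from its count. Of 11 other Sprouty, Spred and dual-specificity phosphatase genes, 8 were fitted, and in WT N4 against WT UN cells Dusp22 (0.84) and Dusp19 (0.70) rose while Dusp3, a small phosphatase that acts on ERK and JNK, fell by 2.41 (limma adjusted p = 0.000321). Of 16 listed components of the Ras to ERK cascade 11 were fitted, of which none rose and 2 fell: Rasgrp1, the exchange factor for Ras (-1.57, limma adjusted p = 0.000679), and Grb2, the adaptor that carries SOS (-0.69). Map2k1, which encodes a MEK, differed by 0.52 without passing (adjusted p = 0.120), and passed with the replicate block (adjusted p = 0.0252), as did Nras (0.40, adjusted p = 0.0457). Of the 14 other brakes on Ras and diacylglycerol 5 fell and none rose, against 6 lower and 4 higher with the block. They include Rasa3, a Ras GTPase activator (-2.28), Rasal3 (-1.18), Dgka, a kinase that consumes diacylglycerol (-1.47), and the adaptor Dok2 (-0.71).

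Immediate early genes and ERK targets moved both ways, with 3 of 19 higher and 5 lower in WT N4 than in WT UN cells (4 and 7 with the replicate block). Fosl2 (1.79) and Fosl1 (1.65), subunits of AP-1, rose, and the transcription factor gene Egr3 (-2.44) and Ier5 (-1.41) fell. Among 10 fitted JNK and p38 kinase genes, Map2k3, an activator of p38, rose by 0.87 and Mapk12, which encodes a p38 isoform, fell by 1.13 (2 higher and 3 lower with the block). No gene of these 5 lists passed by limma in any of the 3 comparisons between N4 genotypes. Of all 12520 genes fitted, 0.016% passed in PKC theta KO against WT N4 cells and 0.335% in p50 cRel DKO against WT N4 cells. In p50 cRel DKO against PKC theta KO cells 0.192% did. At an unadjusted p under 0.05 there were 0, 0, 1, 1 and 0 in the PKC theta KO against WT N4 cells, in the order other phosphatases, cascade, other brakes, targets, JNK and p38. There were 0, 2, 3, 4 and 0 in the p50 cRel DKO against WT N4 cells, and 1, 2, 4, 5 and 0 in the p50 cRel DKO against PKC theta KO cells. The share of all genes at that unadjusted p was not counted, so nothing is read from these numbers. Among the targets, the lowest p in the last of these comparisons was that of Egr1, an ERK-driven transcription factor, with a difference of 1.88 (limma adjusted p = 0.0658, and 0.00468 with the replicate block). Phlda1 differed by 1.43 there (adjusted p = 0.131, and 0.0358 with the block). Egr3 differed by 1.46 between p50 cRel DKO and WT N4 cells (adjusted p = 0.174, and 0.0302 with the block). Rasgrp1 was 0.78 higher in p50 cRel DKO than in WT N4 cells (adjusted p = 0.313).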

How the data were processed

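Total RNA, 100 ng per array, was read on 8 Affymetrix arrays of 1 colour. The deposited values are intensity values, 1 linear signal per probe set, for which the submitters' processing notes name GCOS 1.4 and MAS5, as deposited by the authors. Every array had a 2% trimmed mean of 500, as global scaling gives, while the medians differ. Of 45101 probe sets, 64 controls were left out. Platform annotation gave 1 gene symbol for 34945, several for 932, which were not named, and none for 9160. Symbols of 34741 were taken from RefSeq (GRCm38.p6) through the gene identifier, whether or not they changed. All sample columns of the table were used. No deposited probe sequences or detection calls were used here.

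Values were transformed as log2(signal + 16), and probe sets with a mean under the 40th percentile (5.38) were left out, which kept 27022. One model with a coefficient per group was fitted to all 8 arrays with limma 3.58.1 in R 4.3.3 (lmFit, then eBayes with trend, on 4 residual degrees of freedom). Calls are Benjamini-Hochberg adjusted p under 0.05 over all 27022. Counts at an unadjusted p under 0.05 are given without the share of all probe sets at that limit, and nothing is read from them. The script was tested on simulated data. The number of arrays limits the precision.

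Groups come from the sample titles. A title without a number was taken as replicate 1. Deviations of same-numbered arrays from their group means had r between 0.337 and 0.591 over the 6 pairs of groups. The numbers may thus pair the arrays, though the labels do not say what same-numbered arrays share. The main fit, with its intervals and calls, leaves this pairing out. Values with the number as a block are given where they change a call. Across probe sets, arrays of 1 group had Pearson's r of 0.972 to 0.982. All members are named, and up to 4 genes of each pathway list with the lowest p and, for Spry1 and Dusp5, the 5 genes with the highest r. The members and lists were chosen with earlier results of these data known. Alternatives were another offset, no filter, 1 probe set per gene, quantile normalization, median centring, no trend, only the 2 groups, the block, and each array left out.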

Additional observations from a re-analysis of the deposited data

How the results depend on the processing

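Each comparison's count of member probe sets called was recomputed under 14 alternatives, and 69 of these 84 counts stayed within 1.5 times the reported one. For p50 cRel DKO against WT N4 cells the 1 call became 0 with log2(signal + 1), without the filter, without the mean-variance trend and with only the 2 groups fitted, and 2 with the replicate block. It was 0 to 0 when any 1 array of the comparison was left out. For p50 cRel DKO against PKC theta KO cells the count of 0 became 1 with 1 probe set per gene, with the replicate block and with only the 2 groups fitted. For PKC theta KO against WT UN cells the 5 calls became 8 with quantile normalization, 8 with median centring and 9 with the replicate block, and 4 to 6 when 1 array was left out. The counts ran from 4 to 9 for WT N4 against WT UN and from 5 to 7 for p50 cRel DKO against WT UN, and stayed at 0 for PKC theta KO against WT N4. For the 36 single results that passed the test, or had an unadjusted p under 0.05 with groups that do not overlap, 492 values were computed: 432 kept their direction and side of the threshold, 41 lost the call, 19 gained it and 0 changed sign. Of 1164 values of the other member probe sets, 121 changed sign and 11 passed. In WT N4 against WT UN cells Spry1 (3.76 to 4.44), Dusp5 (1.88 to 2.85), Dusp1 (-2.52 to -1.78) and Dusp10 at 1417164_at (-1.62 to -1.18) passed in all 14. Spred2 at 1434403_at (0.54 to 1.25) passed in 9, and lost the call also without the trend and with only the 2 groups fitted. The block changed no call of a member named in the report other than those given there. Over all probe sets, leaving out the setting with 1 probe set per gene, which fits 12520, the counts moved more: the 4 calls of PKC theta KO against WT N4 ran from 0 to 10, the 61 of p50 cRel DKO against WT N4 from 0 to 293, and the 35 of p50 cRel DKO against PKC theta KO from 0 to 183, highest each time with the block. The 7939 of WT N4 against WT UN ran from 4889 to 11798, the 8142 of PKC theta KO against WT UN from 5275 to 11918, and the 7705 of p50 cRel DKO against WT UN from 4210 to 11647. The causes were not tested. With 2 arrays a group, probe sets near the threshold are not settled by these data, and dim probe sets such as Spry2 1421656_at limit what can be said of them.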
